A study of Mus musculus with 12 samples.

Results

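Complexes III and IV of the respiratory chain and the ATP synthase were followed here through the nuclear genes of their subunits. The members were all array probes with 1 gene symbol beginning with Uqcr, with Cox and a digit from 4 to 8, or with Atp5. A member was tested where its detection p, the chance of such a signal from a probe without a target, was under 0.05 on at least 6 of 12 arrays. Of 60 such probes for 39 genes, 47 probes for 35 genes were tested, among 20296 tested probes for 10933 genes in all. The tested genes were 6 of 7 for complex III, 13 of 16 for complex IV and 16 of 16 for ATP synthase. Uqcrb, Cox7c, Cox8a and Atp5g1 had no probe of that name and were not analysed here.

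Male C57BL/6J mice aged 12 weeks gave the RNA, taken from the caudate putamen (dorsal striatum). For 6 ethanol-exposed samples, the dams had voluntarily drunk ethanol at 10% (v/v), starting 0.5 days and ending 8.5 days post-coitum. The other 6 were labelled control, and their records repeat the ethanol protocol, so it stays unknown here what control dams drank. The labels name no engineered allele, and the exposure ended before birth. The sample titles carry 2 different numbers, read here as those of array chips, which the labels do not state. Each of the 2 chips so named held 3 samples of each group. Whether every sample is a separate animal, or from a separate litter, is not in the labels. The p-values therefore rest on sample-to-sample spread, part of which may be technical.

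Complex III takes electrons from ubiquinol to cytochrome c, and complex IV, cytochrome c oxidase, passes them from cytochrome c to oxygen. Both pump protons across the inner mitochondrial membrane, and ATP synthase lets the protons back to drive the making of ATP. The catalytic core of complex IV and parts of the other complexes are encoded in mitochondrial DNA, while the members described here are encoded in the nucleus. Neurons of the striatum, like other neurons, depend strongly on this oxidative supply of ATP.

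All markers of striatal projection neurons with a named probe were detected and tested (6 of 6), and their mean log2 intensity lay between 12.37 and 12.82 in the 12 samples, the lowest being ethanol 3. Thalamus markers stood apart in ethanol 3 and ethanol 4, at 8.68 and 8.81 against 6.91 to 7.66 in the other samples. Oligodendrocyte markers were high in ethanol 3 (13.48) and control 4 (13.58) and low in ethanol 4 (12.19), against 12.74 to 13.08 in the others. Vascular markers had higher means in 4 of 5 genes (median 0.21), with levels of 7.57 to 8.03 in controls and 7.74 to 8.23 in ethanol-exposed samples, 4 of 6 of which exceeded the top control. Interneuron markers had lower means in 5 of 5 genes (median −0.12), with levels of 9.87 to 10.30 and 9.63 to 10.31. Among them Npy, a neuropeptide of striatal interneurons, had the smallest p. It differed by −0.30 (SE 0.09, limma adjusted p = 0.845) without overlap of the groups. All ethanol-exposed values stood below the controls in 0.137% of all tested genes. The part of these cells in the members' values was not tested. These levels are means of normalized log2 intensities over a list's genes, each by its brightest tested probe. The arrays detected 19452 to 21949 probes.

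No gene of the complexes differed between the groups beyond the threshold. With limma and Benjamini-Hochberg adjustment over all tested probes, 0 of 47 member probes had an adjusted p under 0.05, as had 0 of 20296 probes in all (0%). At an unadjusted p under 0.05 there were 0 of 47 member probes, against 1175 in all (5.79%). Taking each gene by its brightest probe, there were 0 of 35 member genes, against 576 of 10933 (5.27%). The groups overlapped in all 35 genes, where all ethanol-exposed values stood above the controls in 0.192% of all tested genes and below them in 0.137%. Log2 differences, ethanol minus control, ran from −0.25 for Cox4i2 to 0.22 for Cox7a2, with a median of 0.04, against a median of 0.01 over all tested genes. By sign alone, 28 of 35 genes had the higher mean in ethanol-exposed samples and 7 the lower, where 52.3% of all tested genes had the higher mean. Without ethanol 3, or without control 5, that count was 21 of 35, and the median was 0.01 and 0.02. Without both ethanol 3 and ethanol 4 it was 25 of 35, with a median of 0.04. When arrays were scaled by their medians instead of quantile normalized, it was 21 of 35, where 44.8% of all genes had the higher mean. In whole tissue, fewer cells of a type and less RNA per cell cannot be told apart.

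**Figure D1:**
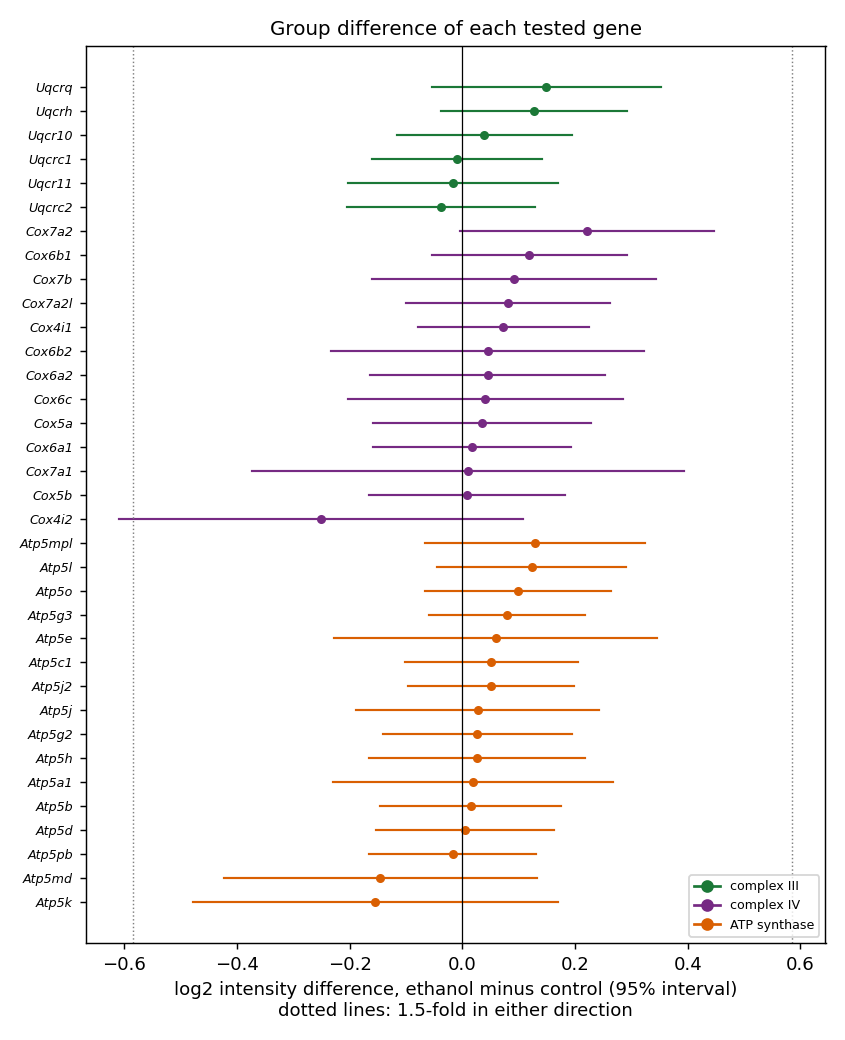
Log2 intensity difference (ethanol minus control) of the 35 tested genes by their brightest probe, with 95% intervals, coloured by complex; dotted lines mark 1.5-fold up and down. Every interval spans 0, and 28 of 35 points lie to the right of it.

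The members were measured with more precision than most genes on the arrays. The median residual SD of a member, within groups, was 0.126 log2 units, against 0.185 over all tested genes. This was not particular to the members. The median was lower still for genes of complex I (0.102), glycolysis (0.111) and cytosolic (0.108) and mitochondrial ribosomal proteins (0.119). Genes of like intensity were not compared. Differences beyond 1.5-fold, up or down, fell outside the 95% interval for 34 of 35 members and for 10124 of 10933 genes in all, the exception among members being Cox4i2. These are limits on array signal, and the offset added before taking log2 makes the differences of dim probes smaller. The steadiest member was Atp5g3, with a residual SD of 0.0550. The most variable were Cox7a1 (0.354) and Cox4i2 (0.327), whose probes were close to background.

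In complex III, 3 of 6 genes had higher means in ethanol-exposed samples, and the median difference was 0.01, which was −0.02 without both ethanol 3 and ethanol 4. Uqcrc1 and Uqcrc2, the core proteins on the matrix side, differed by −0.01 (SE 0.07) and −0.04 (SE 0.08). The 2 probes of Uqcrfs1, the Rieske iron-sulfur protein, were detected on 0 of 12 arrays, so this subunit has no value here. Of the small subunits Uqcr11 differed by −0.02 (SE 0.09).

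Uqcrh, the hinge protein beside cytochrome c1, had a lowest, median and highest log2 intensity of 13.35, 13.40 and 13.60 in controls. In ethanol-exposed samples these were 13.35, 13.59 and 13.69. The groups overlapped over most of their range, and 2 of 6 ethanol-exposed values exceeded the top control. Its difference was 0.13 (SE 0.08, limma adjusted p = 0.864), 1.09-fold with a 95% interval of 0.974 to 1.22.

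Uqcrq, a small subunit named for binding ubiquinone, ran from 8.56 through a median of 8.71 to 8.83 in controls. Ethanol-exposed samples ran from 8.62 through 8.80 to 9.17, the highest being ethanol 4. The difference of 0.15 (SE 0.10, limma adjusted p = 0.867) was −0.01 on chip 1 and 0.31 on chip 2. Uqcr10, another small subunit, spanned 13.68 to 13.89 in controls and 13.68 to 13.95 in ethanol-exposed samples, with medians of 13.82 and 13.86. Its tested probes differed by 0.04 (SE 0.07, adjusted p = 0.971 with limma) and 0.09.

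In complex IV, 12 of 13 genes had higher means in ethanol-exposed samples, with a median difference of 0.04. That count was 8 without ethanol 3, 8 without control 5 and 8 without both ethanol 3 and ethanol 4, and stood at 12 on chip 1 and 8 on chip 2. The gene with the smallest p was Cox7a2, the form of subunit 7a that most tissues use. Its log2 intensity was 8.33, 8.20, 7.97, 8.22, 8.16 and 8.13 in controls 1 to 6. In ethanol-exposed samples 1 to 6 it was 8.26, 8.60, 8.65, 8.04, 8.30 and 8.47. Ethanol 2, ethanol 3 and ethanol 6 lay above every control, while ethanol 4 lay below all but 1 of them. The means were 8.17 ± 0.12 and 8.39 ± 0.23 (SD, n = 6), a difference of 0.22 (SE 0.11). That is 1.17-fold, with a 95% interval of 0.997 to 1.36, and limma's p was 0.0535 before and 0.854 after adjustment.

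Cox6b1, the subunit on the intermembrane side that binds between the monomers of the oxidase dimer, spanned 13.19 to 13.44 in controls, with a median of 13.33. In ethanol-exposed samples it spanned 13.23 to 13.60, with a median of 13.46, and 3 of 6 exceeded the top control. The difference was 0.12 (SE 0.08, limma adjusted p = 0.87), and its other probe gave 0.11.

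Subunits 4, 6a, 6b, 7a, 7b and 8 exist in forms from separate genes, and the arrays carried probes for several. Cox4i1, the common form of the regulatory subunit 4, was detected on all 12 arrays. It spanned 13.96 to 14.16 in controls and 14.02 to 14.22 in ethanol-exposed samples, and differed by 0.07 (SE 0.07, limma adjusted p = 0.925). Cox4i2, the form known from lung and from low oxygen, just met the rule, with detection on 4 control and 2 ethanol arrays. It had values of 5.00, 5.69 and 5.93 (lowest, median, highest) in controls and 4.97, 5.40 and 5.47 in ethanol-exposed samples. Its difference of −0.25 (SE 0.17, limma adjusted p = 0.868) was 0.01 on chip 1 and −0.51 on chip 2. The controls of chip 1 fell apart into 5.00 and 5.06 in control 1 and control 3 and 5.93 in control 2.

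Cox6a1, the common form of subunit 6a, had medians of 13.75 in controls and 13.79 in ethanol-exposed samples. Its ranges of 13.57 to 13.91 and 13.58 to 13.93 coincided almost fully, and the difference was 0.02 (SE 0.08). Cox6a2, the form best known from heart and skeletal muscle, was also detected on all 12 arrays. It spanned 9.10 to 9.46 in controls and 9.16 to 9.58 in ethanol-exposed samples, with a difference of 0.04 (SE 0.10). Cox7a1, the muscle form of subunit 7a, was detected on 12 arrays near background. It spanned 6.02 to 6.97 in controls and 5.89 to 7.00 in ethanol-exposed samples, with a difference of 0.01 (SE 0.18). The highest samples for Cox7a1 were control 4 and ethanol 3. The same samples were highest for oligodendrocyte markers, and also for astrocyte (10.19 and 10.29), microglia (8.47 and 8.60) and interneuron markers (10.30 and 10.31). Their arrays also detected the most probes, 21949 and 21526, against 19452 to 20831 on the others. The part of any of these cells, or of array-wide detection, in Cox7a1 was not tested.

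The untested gene nearest to the rule was Cox8b, the muscle form of subunit 8, detected on 1 control and 2 ethanol arrays. Of forms best known from testis, Cox7b2 and Cox8c were detected on 0 arrays. Cox6b2 was detected by 1 of its 2 probes, on 12 arrays, with a difference of 0.04 (SE 0.13). Levels of different probes are not comparable on these arrays, so nothing is said of which form was more abundant.

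Cox7a2l, which joins complexes III and IV into a supercomplex and of which C57BL/6 mice are known to carry a shortened protein, is related to subunit 7a but is not a subunit of the oxidase. It spanned 11.66 to 11.99 in controls and 11.85 to 12.09 in ethanol-exposed samples, with a median of 11.93 in both groups and a difference of 0.08 (SE 0.08). Of the remaining structural subunits of complex IV, Cox5a differed by 0.03 (SE 0.09), Cox5b by 0.01 (SE 0.08), Cox7b by 0.09 (SE 0.12) and Cox6c by 0.04 (SE 0.11). None of these differences exceeded its SE.

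**Figure D2:**
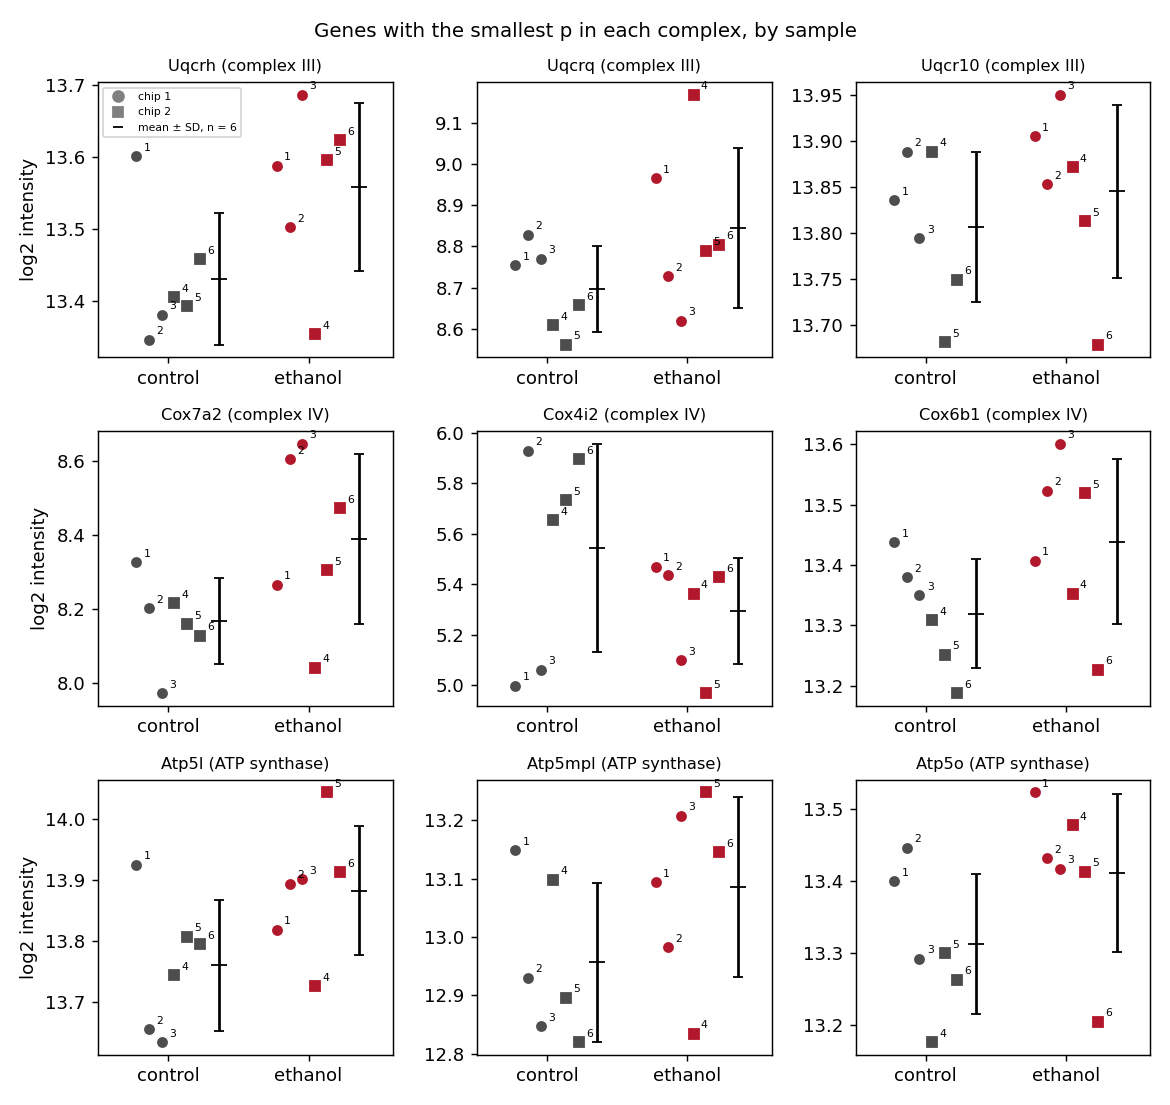
Normalized log2 intensity of the 3 genes with the smallest p in each complex; each numbered point is 1 sample, circles are chip 1 and squares chip 2, and bars give mean ± SD (n = 6). The groups overlap in all 9 panels, and for Cox7a2 3 of 6 ethanol-exposed points exceed the top control.

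In ATP synthase, 13 of 16 genes had higher means in ethanol-exposed samples, with a median difference of 0.03, and 10 of 16 did on each chip. Of the catalytic F1 head, 5 of 5 genes had higher means, by a median of 0.02. Atp5b, the catalytic beta subunit, spanned 15.09 to 15.36 in controls and 15.14 to 15.36 in ethanol-exposed samples, and differed by 0.01 (SE 0.08). Atp5a1 (alpha) differed by 0.02 (SE 0.12), Atp5c1 (gamma) by 0.05 (SE 0.07), Atp5d (delta) by 0.00 (SE 0.07) and Atp5e (epsilon) by 0.06 (SE 0.13).

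The ring of c subunits, which turns as protons pass, is made from Atp5g2 and Atp5g3 as well as Atp5g1, all 3 genes encoding the same mature protein. Atp5g3 spanned 14.82 to 15.00 in controls, with a median of 14.92. In ethanol-exposed samples it spanned 14.96 to 15.02, with a median of 14.98. Ethanol-exposed samples thus filled the upper end of the control range, and 2 of 6 lay above it. The difference was 0.08 (SE 0.06, limma adjusted p = 0.9), 1.06-fold with a 95% interval of 0.96 to 1.16. Atp5g2 spanned 10.41 to 10.77 in controls and 10.55 to 10.76 in ethanol-exposed samples, with a difference of 0.03 (SE 0.08), which was −0.09 on chip 1 and 0.14 on chip 2.

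Of the peripheral stalk, which holds the head still, Atp5o had the smallest p. This subunit, OSCP, spanned 13.18 to 13.45 in controls with a median of 13.30. In ethanol-exposed samples it spanned 13.20 to 13.52 with a median of 13.42, and ethanol 6 was the lowest of them. The difference was 0.10 (SE 0.08, limma adjusted p = 0.894). Its other tested probes differed by 0.08 and −0.11, the latter from a probe detected on only 7 arrays. Atp5h and Atp5j each differed by 0.03 (SE 0.09 and 0.10) and Atp5pb by −0.02 (SE 0.07).

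The membrane subunits hold the 2 other named genes. Atp5l, subunit g, spanned 13.63 to 13.93 in controls with a median of 13.77, and 13.73 to 14.04 in ethanol-exposed samples with a median of 13.90. Its difference was 0.12 (SE 0.08, limma adjusted p = 0.866) and that of its other probe 0.09. Atp5mpl, a small proteolipid of the complex, spanned 12.82 to 13.15 in controls with a median of 12.91, and 12.83 to 13.25 in ethanol-exposed samples with a median of 13.12. Its difference was 0.13 (SE 0.09, limma adjusted p = 0.879). In both genes 5 of 6 ethanol-exposed samples lay above the control median, the exception being ethanol 4. Atp5j2 (subunit f) differed by 0.05 (SE 0.07), while Atp5k (subunit e) and Atp5md, both dim, each differed by −0.15 (SE 0.15 and 0.13).

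Of 10 member genes with more than 1 tested probe, 5 had all probes of 1 sign. In Atp5j, Atp5o, Atp5pb, Cox5b and Cox6a1 the probes differed in sign, by at most 0.21 log2 units between the probes of a gene.

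Across genes, the samples differed in a shared way that cut through the groups. Ethanol 3 was the highest of all 12 samples for 13 of 35 genes and lay above the control mean in 28 of them. Control 5 was the lowest for 10 genes and lay above the control mean in 8. Ethanol 4 was the highest for 6 genes and the lowest for 6. The mean level of complex III was 12.33 ± 0.04 in controls and 12.38 ± 0.05 in ethanol-exposed samples (SD, n = 6). It was 10.41 ± 0.09 and 10.46 ± 0.08 for complex IV, and 11.54 ± 0.05 and 11.57 ± 0.08 for ATP synthase. For each complex the groups overlapped, and ethanol 3 was the highest sample, at 12.44, 10.60 and 11.65. Control 5 was the lowest for complexes III and IV, at 12.26 and 10.30, while ethanol 4 was the lowest for ATP synthase, at 11.42.

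**Figure D3:**
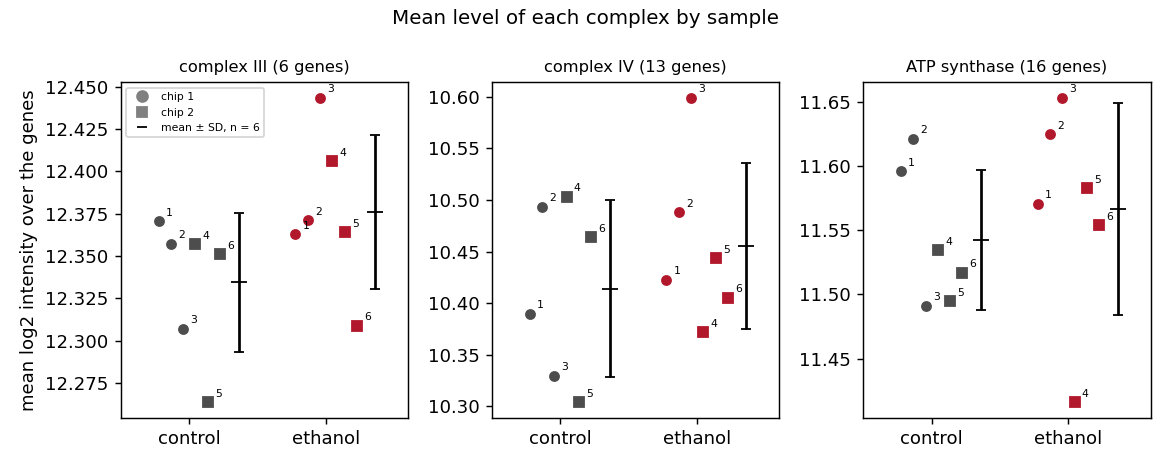
Mean normalized log2 intensity over the tested genes of each complex; each numbered point is 1 sample, circles are chip 1, squares chip 2, and bars give mean ± SD (n = 6). Ethanol 3 is highest in all 3 panels, control 5 lowest for complexes III and IV, and ethanol 4 lowest for ATP synthase at 11.42.

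**Figure D4:**
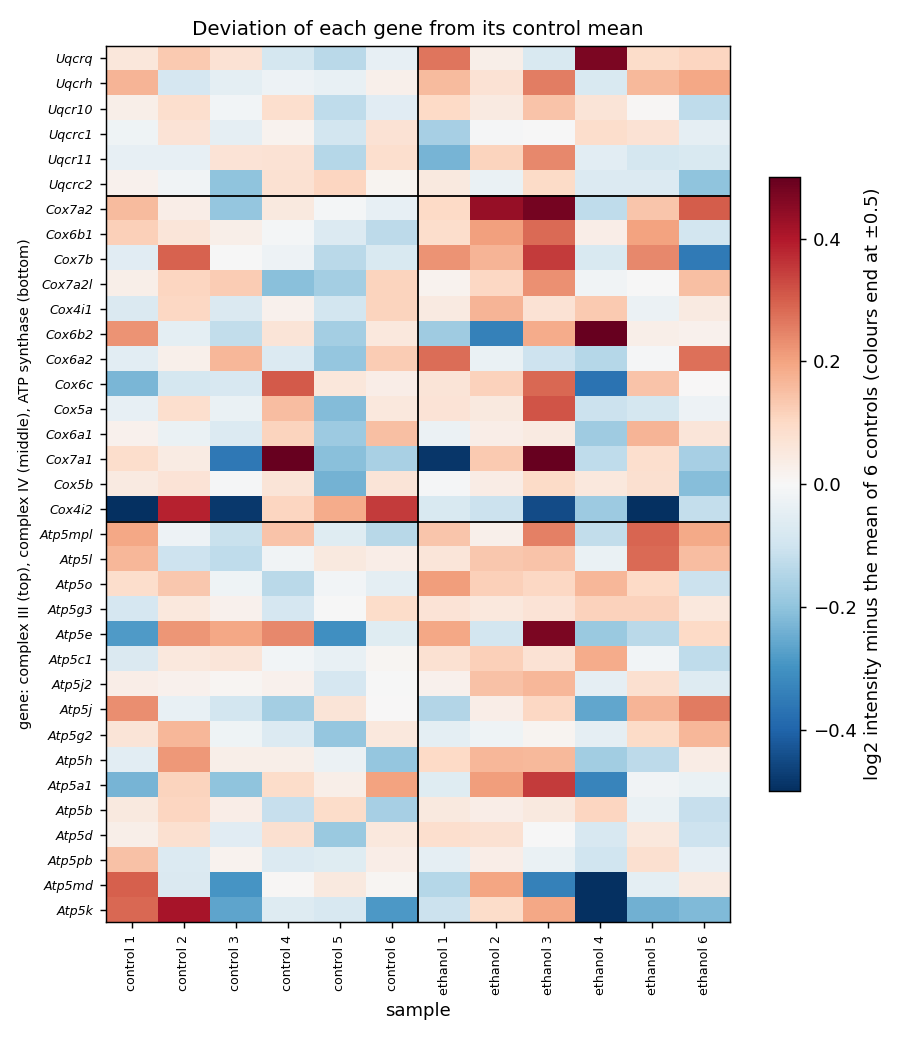
Log2 intensity of each gene (rows, by complex) in each sample (columns) minus the mean of the 6 controls, in colour from −0.5 to 0.5. Ethanol 3 lies above the control mean in 28 of 35 genes and control 5 in 8, and dim genes such as Cox7a1 and Cox4i2 vary most.

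The group differences were next compared between the chips, each with its own controls. Of 35 genes, 26 had higher means in ethanol-exposed samples on chip 1 (50.1% of all tested genes), 22 on chip 2 (52.5%) and 15 on both (23.8%). The median difference was 0.07 on chip 1 and 0.0151 on chip 2, against 0.000446 and 0.0121 over all tested genes. In limma's test of the group by chip interaction, 0 of 20296 probes passed adjustment (0%), and at an unadjusted p under 0.05 there were 2 of 35 members, against 9.94% of all tested genes. These were Cox6c and Atp5a1, named after their values were seen. For Cox6c the difference was 0.29 on chip 1 against −0.21 on chip 2, and for Atp5a1 0.27 against −0.24 (adjusted p of the interaction 0.44 and 0.439 with limma). In both genes ethanol 4 had the lowest value of the 12, at 12.45 and 9.44. The list of oligodendrocyte markers likewise had 6 of 6 genes higher on chip 1 and 0 of 6 on chip 2, with median differences of 0.27 and −0.58, and was lowest in ethanol 4. Other lists also went from higher to lower medians: astrocyte (0.28 and −0.09), microglia (0.08 and −0.12) and choroid plexus markers (1.33 and −0.79). The choroid plexus list had only 2 tested genes, which went opposite ways, Ttr at 2.75 and −1.66 and Clic6 at −0.08 and 0.08. Microglia markers were lowest in ethanol 4 too, at 8.10. Markers of striatal projection neurons had medians below 0 on both chips, at −0.15 and −0.00165. Among pathway lists described below, complex II and citrate cycle (0.09 and −0.04) and carriers (0.03 and −0.02) also turned lower. Assembly lists of complex III (−0.03 and 0.03) and ATP synthase (−0.08 and 0.05) turned higher. Slc17a7, the 1 tested cortical excitatory marker, went from −1.34 to 0.26. The part of any of these cell types in Cox6c and Atp5a1 was not tested.

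**Figure D5:**
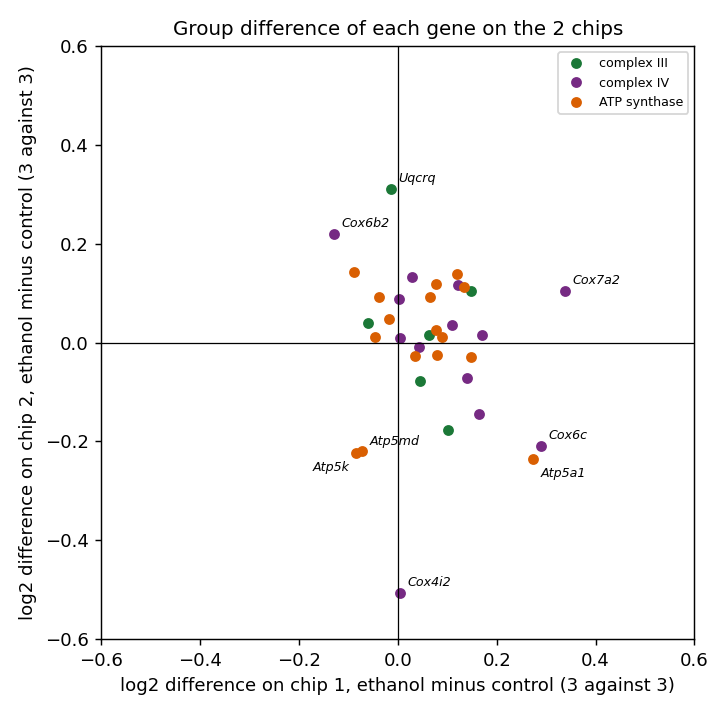
Log2 difference (ethanol minus control) of each tested gene on chip 1 (horizontal) and chip 2 (vertical), 3 samples against 3 on each, coloured by complex. Of 35 genes 15 lie at the upper right, and Cox6c and Atp5a1 lie at the lower right.

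Other genes of the pathway were read from the same fit, and 0 passed the adjusted threshold in any of these lists. Complex I, which feeds electrons from NADH, had 30 of 42 genes with higher means (median 0.03), led by Ndufa11 (0.16, SE 0.08) and Ndufa7 (0.15, SE 0.07). Complex II and the citrate cycle had 10 of 14 (median 0.03), with Idh3g, a subunit of isocitrate dehydrogenase, at 0.13 (SE 0.07) and Sdhc, a membrane anchor of complex II, at 0.12 (SE 0.09). The carriers around the chain had 5 of 8 (median 0.01), with Slc25a3, the phosphate carrier, at −0.08 (SE 0.09) and Cyc1, the cytochrome c1 subunit of complex III that the naming rule misses, at 0.05 (SE 0.08). Glycolysis had 3 of 14 (median −0.05), with the phosphofructokinases Pfkl and Pfkp each at −0.14 (SE 0.08 and 0.11).

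The genes that build the complexes, or regulate their supply, are described next. Assembly factors of complex IV had higher means in 6 of 16 genes (median −0.02), with Cox11, a copper chaperone, at −0.33 (SE 0.18) and Coa5 at −0.12 (SE 0.08). Those of complex III had 2 of 4, with Ttc19 at −0.11 (SE 0.09) and Bcs1l, which inserts the Rieske protein, at 0.07 (SE 0.07). The assembly and inhibitor list of ATP synthase had 1 of 3, with Tmem70 at −0.02 (SE 0.08) and Atpaf2 at −0.02 (SE 0.10). Regulators of mitochondrial biogenesis had 5 of 11 (median −0.02), with Tfam, the packaging factor of mitochondrial DNA, at −0.18 (SE 0.10) and the ETS factor Gabpa at −0.27 (SE 0.15). The probes of Cox11 and Gabpa were dim, with mean log2 intensities of 6.63 and 5.88. At an unadjusted p under 0.05 there were 0 genes in these lists and in those of the preceding paragraph. No difference between lists was tested.

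Ribosomal protein genes are given beside the members because they are likewise many, small and nuclear. Higher means were found in 50 of 62 cytosolic (80.6%, median 0.08) and in 53 of 72 mitochondrial ribosomal protein genes (73.6%, median 0.04), against 80% of the members. At an unadjusted p under 0.05, with 5.27% of all tested genes called, 8 cytosolic and 6 mitochondrial ribosomal genes were higher and 0 lower, among them Rps19 (0.20, SE 0.07) and Mrpl33 (0.26, SE 0.08), and 0 members. Of the cytosolic ribosomal level, 5 of 6 ethanol-exposed values exceeded the top control, against 2 of 6 for the level of all members. Control 5 had the lowest level of all 12 samples in both ribosomal lists as well, at 11.79 and 9.88, and in complex I, at 11.16.

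Promoters of the members were searched for sites of factors known to regulate nuclear respiratory genes, a property the naming rule did not use. RefSeq promoters (GRCm38.p6, 250 bases before to 50 after the start, on the strand of the gene) matched 30 of 39 genes by symbol, with 33 promoters. The NRF-1 core GCATGCGC, searched on both strands, stood in 18.2% of member promoters and in 2.71% of all 32851 promoters. Preceded by GC, the core becomes the full palindrome, which matches the core on both strands and stood in 12.1% and 0.971%. The ETS motif CCGGAAG, bound by Gabpa among others and searched on both strands, stood in 30.3% and 8.86%. The core of a YY1 site, AAGATGGC, searched on both strands, stood in 9.09% (3 of 33) and 2.75%. The short motif CCAAT, also searched on both strands, stood in 51.5% and 37.4%. Member promoters and all promoters were not matched for base composition. These shares describe letters, not binding, and no relation of the motifs to the differences between the groups was tested.

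All 4 member promoters that held both the NRF-1 core and the ETS motif are shown, with these motifs in capitals on either strand. They lie at chr10:80406772-80407071 for Uqcr11, chr5:115348909-115349208 for Cox6a1, chr9:44920693-44920992 for Atp5l and chr5:108434350-108434649 for Atp5k, all on the minus strand of GRCm38.p6.
Uqcr11: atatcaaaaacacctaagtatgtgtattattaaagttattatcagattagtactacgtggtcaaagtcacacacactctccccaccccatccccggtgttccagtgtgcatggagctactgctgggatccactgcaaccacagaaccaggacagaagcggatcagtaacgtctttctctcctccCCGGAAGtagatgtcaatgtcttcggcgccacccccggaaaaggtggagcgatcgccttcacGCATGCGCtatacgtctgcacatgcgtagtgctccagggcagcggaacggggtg
Cox6a1: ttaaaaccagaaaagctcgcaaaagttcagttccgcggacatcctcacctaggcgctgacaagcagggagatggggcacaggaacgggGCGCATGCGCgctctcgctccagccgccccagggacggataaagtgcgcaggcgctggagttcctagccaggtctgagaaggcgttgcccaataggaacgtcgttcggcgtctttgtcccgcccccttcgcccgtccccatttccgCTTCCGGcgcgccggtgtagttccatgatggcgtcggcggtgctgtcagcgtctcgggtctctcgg
Atp5l: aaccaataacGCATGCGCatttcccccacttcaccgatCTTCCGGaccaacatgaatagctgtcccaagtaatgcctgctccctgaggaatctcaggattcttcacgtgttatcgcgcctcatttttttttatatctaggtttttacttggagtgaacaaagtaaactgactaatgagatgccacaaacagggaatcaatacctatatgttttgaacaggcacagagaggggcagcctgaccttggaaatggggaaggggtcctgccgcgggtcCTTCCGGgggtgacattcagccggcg
Atp5k: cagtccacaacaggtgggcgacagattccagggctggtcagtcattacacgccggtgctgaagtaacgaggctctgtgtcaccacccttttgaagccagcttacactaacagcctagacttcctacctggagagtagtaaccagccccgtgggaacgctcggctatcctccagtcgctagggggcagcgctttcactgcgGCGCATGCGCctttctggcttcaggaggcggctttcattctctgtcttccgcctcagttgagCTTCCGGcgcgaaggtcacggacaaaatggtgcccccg
Positions count from the annotated start to the first base of a match. Cox6a1 holds the full palindrome, with core matches at −162 and −160, and the ETS motif at −16. Uqcr11 holds the core at −4 and the ETS motif at −66. Atp5l holds the core at −240 and the ETS motif at −212 and 24. Atp5k holds the full palindrome, with core matches at −50 and −48, and the ETS motif at 12. The log2 differences of these genes were −0.02 for Uqcr11, 0.02 for Cox6a1, 0.12 for Atp5l and −0.15 for Atp5k, of both signs and each short of the threshold.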

How the data were processed

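Illumina bead arrays measured total RNA of 12 samples, each on its own array. For 45281 probes the raw deposited table gives a linear intensity and a detection p-value on every array, per the file headers, with no scaling between arrays. Intensities in the authors' other table nearly share their quartiles across columns. The submitters' processing notes name GenomeStudio 1.9.0, with a background setting not given in the sources used here.

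Following neqc in limma 3.58.1 (R 4.3.3), background was modelled with normexp from the detection p-values, 16 was added, arrays were brought to common quantiles, and log2 was taken of these deposited intensities. Probes detected (p under 0.05) on 6 or more of the 12 were fitted with lmFit and eBayes without covariates (two-sided, Benjamini-Hochberg over all tested probes, threshold 0.05). The fit was also run on simulated data with noise independent between probes. Those data lacked the deviations that samples shared across genes here, so they do not show how the fit handles them. In the platform annotation 34885 probes have 1 symbol, 18 have several and 10378 have none. All 39 member genes matched the reference gene table. The brightest tested probe stands for a gene. Values are given for the 3 genes with the smallest p in each complex, the isoform sets and genes whose probes differ by over 0.3 log2 units (0 genes), and in other lists for the 2 genes with the smallest p. The members and lists were chosen with earlier results of these data known. Arrays give no molecule counts, and their number limits the precision.

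Alternatives covered background correction, offset, normalization, the authors' intensities, filters, chip and replicate blocks, each chip, moderation, weights, probe averaging and leaving out each array. A fit without ethanol 3 and ethanol 4 was added after seeing the data.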

Additional observations from a re-analysis of the deposited data

Results flagged for a closer look

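For 16 genes and 4 mean levels, isolated samples were sought within control and ethanol-exposed samples separately, comparing the end sample's distance from its neighbour with the spread of all 6. Of 40 groups 1 held such a sample, where chance gives about 1 in 20. Ethanol 6 was low for Atp5o, at a log2 intensity of 13.20 against 13.41 to 13.52 in the other ethanol-exposed samples, and its 1 value is given without explanation. Without ethanol 6 the Atp5o difference was 0.14 in place of 0.10.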

How the results depend on the processing

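Under every alternative run, 0 member probes passed adjustment and 0 probes in all, and 12 of the 16 named genes with a value kept their sign when each array was left out. With 1 array left out, the median difference of the members lay between 0.01 (without ethanol 3) and 0.06 (without ethanol 4), and the count of genes with higher means between 21 and 29 of 35. By complex the median ran from −0.00102 to 0.03 for complex III, 0.01 to 0.07 for complex IV and 0.01 to 0.07 for ATP synthase. Member genes at an unadjusted p under 0.05 numbered 0, and 0 to 2 with 1 array left out. Some differences turned sign, among them those of Uqcrq and Cox4i2. Cox7a1 was at −0.0190 with median scaling, −0.000301 with cyclic loess, −0.14 on chip 2 alone and −0.11 without ethanol 3 and ethanol 4. Cox6a1 was at −0.0104 with median scaling, −0.0091 on chip 2 alone and −0.00317 with a gene's probes averaged. On chip 1 alone Uqcrq was at −0.0136, Cox4i2 at 0.00509 and Atp5g2 at −0.0885. With arrays left out in turn, Cox7a1 ran from −0.11 to 0.13, Cox6a1 from −0.0200 to 0.0553, Cox6a2 from −0.00233 to 0.0818 and Atp5g2 from −0.0118 to 0.0601. The cause was not tested. Probes at an unadjusted p under 0.05 numbered 1175 of 20296, of which 588 higher, and with median scaling 1014, of which 336 higher. On chip 2 alone there were 2051 of 20296. Without the filter there were 2420 of 45281 probes, and with probes averaged 642 of 10933 genes, so these 2 counts have other totals. With the replicate number as a block, 0 member probes passed, the median difference was 0.04 and 1425 probes had an unadjusted p under 0.05. Same-numbered samples correlated between −0.14 and 0.28 in their deviations and 2 of 6 correlated best with their own number, so the numbers were not taken as pairs.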
